A study of Rattus norvegicus with 20 samples.

Results

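Nuclear genes of the mitochondrial respiratory chain were followed in cultured rat epithelial cells before and after transplantation into skin. Members were chosen by name alone, as probe sets with exactly 1 gene symbol that starts with Nduf, Uqcr, Atp5, Cox4 to Cox8, or Sdh followed by a, b, c or d, and 1 probe set with the highest mean over all arrays was kept for each symbol. This gave 83 of the 14506 symbols on the array. Of these, 35 belonged to complex I, 7 to complex II, 7 to complex III, 16 to complex IV and 16 to complex V, and 2 (Ndufs6-ps1 and Cox6c-ps1) are annotated as pseudogenes, whose probes may also bind the parent transcript, so that their values are uncertain. The counts for complexes I and II include 3 assembly factors each, that for complex IV includes the supercomplex factor Cox7a2l and that for complex V the inhibitor Atp5if1.

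The donors were Sprague-Dawley rats aged 200 days that express EGFP constitutively, and the cells came from their footpad, trachea, esophagus, vagina and oral mucosa. They were grown on irradiated mouse 3T3-J2 feeder cells, which gave the samples before transplantation. For the samples after transplantation, cells of the same origins had first contributed to newborn mouse skin grafted on nude mice and were then recovered from those grafts and cultured in the same way. EGFP-positive cells were sorted at both stages, which leaves mouse cells out but keeps any kind of rat cell, and 100 ng of total RNA per sample was labeled for Affymetrix Rat Gene ST arrays. Each of the 10 groups had 2 arrays. Nothing in the labels ties duplicates to separate animals or grafts, so the p-values below measure only the spread between duplicate cultures.

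The respiratory chain passes electrons from NADH, through complex I, or from succinate, through complex II, to complex III, cytochrome c and complex IV, which reduces oxygen. Complexes I, III and IV pump protons across the inner mitochondrial membrane, and complex V uses the gradient to make ATP. Most subunits are encoded in the nucleus and imported, while several core subunits are encoded by mitochondrial DNA and are not among the members, and glycolysis is the other main source of ATP.

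Values are log2 RMA values, which are on a relative scale within the array set, so that a difference of 1 is a 2-fold difference. Array medians lay between 5.31 and 5.55 and duplicates correlated at r = 0.991 to 0.996 across the 29215 probe sets, which are not independent replicates. By mean level, 78 of the 83 members lay above the median probe set, and 5 (Cox4i2, Cox6b2, Cox6c-ps1, Cox8b and Cox8c) lay among the lowest 40%. The highest mean levels were those of Atp5f1a (11.98), Atp5f1b (11.84), Ndufa4 (11.27), Atp5if1 (11.24) and Cox6a1 (11.17), each of 1 probe set and not to be set against each other, since probes differ in brightness. The median level of 6 epithelial markers lay between 10.84 and 11.25 before transplantation and between 10.48 and 10.98 after. Several of them changed, as given below, while Krt14, a keratin of basal epithelial cells, read between 13.05 and 13.33 in the group means. The median of the fibroblast list lay between 5.37 and 7.71 before transplantation and between 5.61 and 6.56 after. The median levels of the endothelial, leukocyte, melanocyte and muscle lists lay between 3.41 and 5.57 on every array. In a bulk RNA sample, fewer cells of a type and less RNA per cell cannot be told apart.

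Since many of these genes changed in the same direction in several tissues, promoter sequences are shown first. A RefSeq promoter (GRCr8, 250 bases before to 50 after the gene start) was found for 73 of the 83 members. The windows were searched on both strands for the core motifs of 3 factor families known to act at genes of the respiratory chain, CCGGAAG (the ETS family, which includes GABP), TGCGCA (NRF1) and AAGATGG (YY1). The ETS motif was found in 32.9% of the members' promoters against 9.22% of all 27457 promoters, taken as 1 per gene. The NRF1 motif was found in 30.1% against 7.68%, and the YY1 motif in 20.5% against 7.3%. Among the 19005 promoters of protein-coding genes the shares were 11.2%, 9.18% and 7.58%. At least 1 of the 3 was found in 64.4% of the members' promoters and in 24.6% of those of protein-coding genes. The share was 70% for the 20 promoters whose genes were higher after transplantation in vagina, esophagus, footpad and trachea alike. It was 68.4% for the 19 promoters whose genes were higher in none of the 5 tissues. A match is a description of the letters and not of binding. The promoters of 4 genes that rose alike (Ndufb6, Ndufc2, Uqcrh and Cox8a) and of 1 abundant gene that did not pass the test in any tissue (Atp5f1b) are given 5′ to 3′ on the gene's strand, with the motifs on either strand in capitals. Ndufb6 holds 1 NRF1 motif, Uqcrh 1 ETS motif, Cox8a 2 ETS motifs and 1 YY1 motif, and Ndufc2 and Atp5f1b none of the 3. They lie at chr5:60206103-60206402 (Ndufb6, minus strand), chr1:161122940-161123239 (Ndufc2, plus), chr5:134790833-134791132 (Uqcrh, minus), chr1:213833574-213833873 (Cox8a, minus) and chr7:1099808-1100107 (Atp5f1b, plus).
Ndufb6: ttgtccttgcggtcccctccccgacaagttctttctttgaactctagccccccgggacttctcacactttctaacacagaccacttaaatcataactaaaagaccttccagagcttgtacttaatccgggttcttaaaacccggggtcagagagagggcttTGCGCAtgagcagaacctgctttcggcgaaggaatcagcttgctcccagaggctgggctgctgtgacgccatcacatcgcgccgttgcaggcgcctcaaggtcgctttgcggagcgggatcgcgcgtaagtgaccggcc
Ndufc2: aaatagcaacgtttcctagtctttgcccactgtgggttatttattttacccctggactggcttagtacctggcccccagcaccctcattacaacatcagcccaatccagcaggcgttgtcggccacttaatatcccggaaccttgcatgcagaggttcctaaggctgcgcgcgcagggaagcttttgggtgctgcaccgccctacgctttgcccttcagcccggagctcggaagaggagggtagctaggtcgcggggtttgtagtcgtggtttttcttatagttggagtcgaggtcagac
Uqcrh: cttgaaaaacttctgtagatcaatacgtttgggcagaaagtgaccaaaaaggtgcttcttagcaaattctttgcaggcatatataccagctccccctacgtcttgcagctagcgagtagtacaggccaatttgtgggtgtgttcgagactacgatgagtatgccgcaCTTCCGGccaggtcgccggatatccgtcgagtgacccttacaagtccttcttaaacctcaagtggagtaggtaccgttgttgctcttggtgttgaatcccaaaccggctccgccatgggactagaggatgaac
Cox8a: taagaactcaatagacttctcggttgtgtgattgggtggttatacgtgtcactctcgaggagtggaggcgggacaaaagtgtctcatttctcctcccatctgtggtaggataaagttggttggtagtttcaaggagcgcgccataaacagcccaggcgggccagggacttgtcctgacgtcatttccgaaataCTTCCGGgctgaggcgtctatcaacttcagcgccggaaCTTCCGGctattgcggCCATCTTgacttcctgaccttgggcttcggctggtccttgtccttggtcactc
Atp5f1b: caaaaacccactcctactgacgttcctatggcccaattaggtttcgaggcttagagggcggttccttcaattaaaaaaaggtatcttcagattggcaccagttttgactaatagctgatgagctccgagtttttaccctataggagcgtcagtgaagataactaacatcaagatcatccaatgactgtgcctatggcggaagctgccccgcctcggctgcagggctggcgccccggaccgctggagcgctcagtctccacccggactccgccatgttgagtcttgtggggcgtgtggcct

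The first question was how these genes changed in each tissue between the cultures before transplantation and those recovered from the transplants. In vagina, esophagus, footpad and trachea a large part of the members was higher after transplantation, whereas in oral mucosa few were. At limma's adjusted p under 0.05, 48 of the 83 members (57.8%) rose in vagina, where 9.17% of all probe sets rose, 30 (36.1%) rose in esophagus against 6.7%, 46 (55.4%) rose in footpad against 16.6%, and 36 (43.4%) rose in trachea against 6.25%. In oral mucosa 2 members (2.41%) rose against 9.35% of all probe sets. Members fell in 2 tissues, 10 in oral mucosa (11% of all probe sets fell there) and 6 in footpad (14.9%). In vagina, esophagus and trachea limma called 0 members lower, where 10.7%, 6.57% and 8.84% of all probe sets fell. At an unadjusted p under 0.05, 1, 3 and 4 members were lower there. In either direction 55, 49 and 57 members passed that p, against 32.5%, 24.3% and 26% of all probe sets. Some of these counts rested on single arrays, with the lone remaining array of a pair assumed to vary like the other groups. The calls in vagina fell to 27 without replicate 1 before transplantation, 29 without replicate 1 after and 31 without replicate 2 after, and those in trachea to 22 without replicate 1 after. In esophagus they fell to 14 without replicate 2 before, 19 without replicate 1 after and 15 without replicate 2 after, and the 12 calls in oral mucosa to 4, 3 and 6 without replicate 1 before, replicate 1 after and replicate 2 after.

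Most changes were small. The median change of the members was 0.32 in vagina, 0.25 in esophagus, 0.33 in footpad and 0.28 in trachea, and -0.07 in oral mucosa, whereas the median over all probe sets lay between -0.03 and 0.06. With a fold over 2 required as well, 10 members passed in footpad (6.92% of all probe sets), 3 in trachea (1.38%) and 2 in esophagus (1.07%). In vagina 1 member passed (2.21%) and in oral mucosa 0 (3.65%). An unadjusted p under 0.05 was found for 24 members in oral mucosa, against 33.2% of all probe sets, and none of them had that fold. Both arrays after transplantation lay above both arrays before for 67 members in vagina (36.6% of all probe sets), 65 in trachea (29.4%), 59 in esophagus (24.5%), 54 in footpad (29%) and 18 in oral mucosa (31.2%). Both lay below for 33 members in oral mucosa (24.8% of all probe sets) and 11 in footpad (31.4%), and for 2, 8 and 4 in vagina, esophagus and trachea (26.3%, 25.4% and 28.2%).

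**Figure D1:**
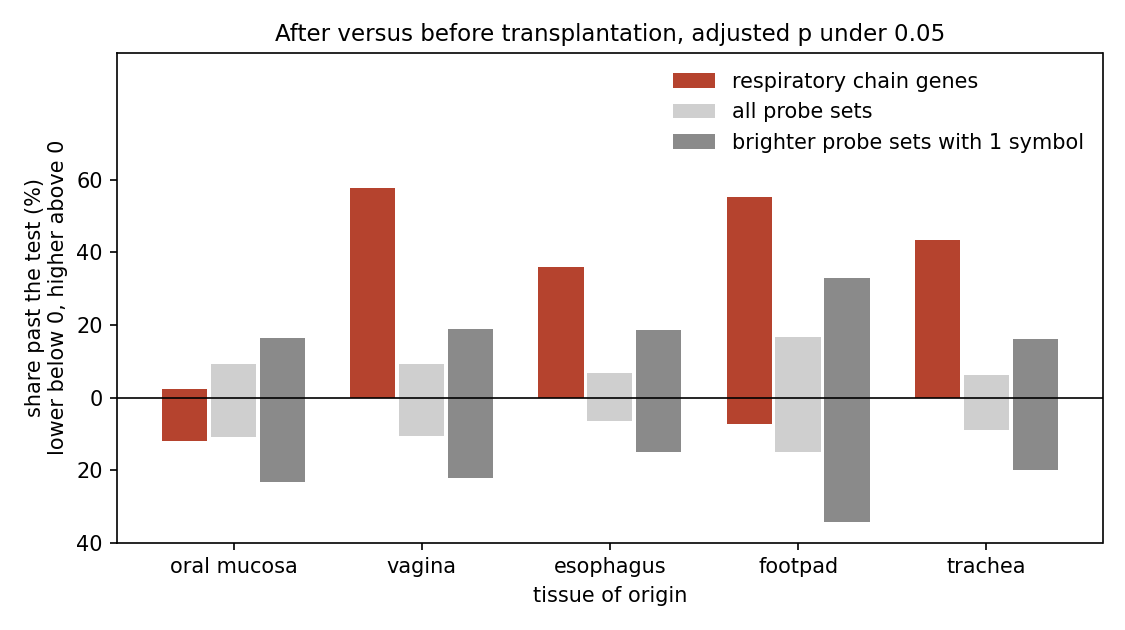
Share of genes past limma's adjusted p of 0.05 after versus before transplantation (vertical axis, percent, higher above 0 and lower below 0) in each tissue of origin, for the 83 respiratory chain genes, all 29215 probe sets, and the 3761 probe sets with 1 symbol and a mean level of at least 8.32. The share of respiratory chain genes that rose was 57.8% in vagina, 36.1% in esophagus, 55.4% in footpad and 43.4% in trachea, against 2.41% in oral mucosa.

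The members are brighter than most probe sets, and bright probe sets passed the test more often. Among the 3761 probe sets with 1 symbol whose mean level was at least 8.32, the lower quartile of the members, 18.8% rose in vagina, 18.7% in esophagus, 32.9% in footpad, 16% in trachea and 16.4% in oral mucosa. Of the same probe sets, 22.2% fell in vagina, 15.1% in esophagus, 34.2% in footpad, 20% in trachea and 23.3% in oral mucosa. The members fell less often than these, 7.23% of them in footpad and 12% in oral mucosa. This comparison was chosen after the counts had been seen. The number of calls also depended on the scaling: with each array centered on its own median, 26 members rose in vagina, 19 in esophagus, 45 in footpad and 26 in trachea, and in oral mucosa 0 rose and 16 fell. In oral mucosa, centering moved the median over all probe sets from 0.05 to -0.09 and that over the members from -0.07 to -0.20.

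Ndufb6, an accessory subunit in the membrane arm of complex I, changed most. Its arrays before transplantation read 7.87 and 7.55 in oral mucosa, 7.76 and 7.84 in vagina, 8.02 and 7.65 in esophagus, 7.46 and 7.80 in footpad, and 7.75 and 7.94 in trachea. After transplantation they read 9.44 and 9.50 in vagina, 9.37 and 9.42 in esophagus, 9.29 and 9.29 in footpad, and 9.38 and 9.45 in trachea, but 7.49 and 7.47 in oral mucosa. The 8 recovered arrays of vagina, esophagus, footpad and trachea thus lay above every array before transplantation, while the 2 recovered arrays of oral mucosa lay at the low end of the cultures before. The change was 1.67 ± 0.14 (SE, limma) in vagina, 1.56 in esophagus, 1.66 in footpad and 1.57 in trachea, which are folds of 2.95 to 3.18, with adjusted p-values of 1.62e-06, 9.9e-06, 4.41e-07 and 6.68e-06. In oral mucosa it was -0.23 (adjusted p = 0.271). The response in oral mucosa differed from the mean of the other 4 tissues by -1.85 ± 0.15 (adjusted p = 1.09e-06), and among those 4 the responses spanned 0.11 (F test, adjusted p = 0.94).

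**Figure D2:**
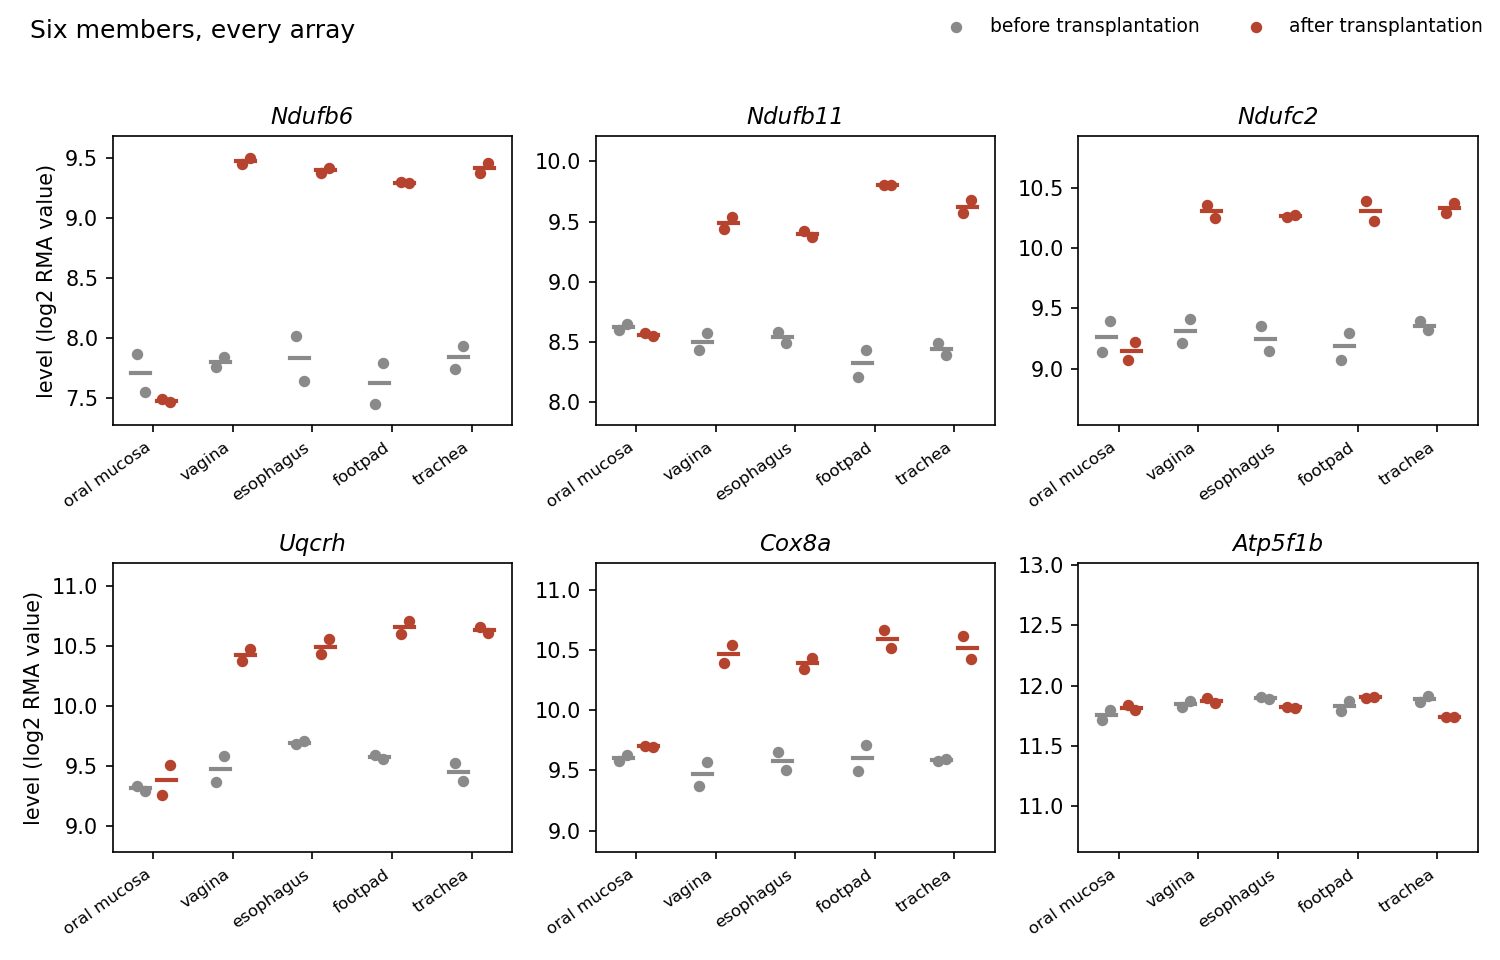
Levels of Ndufb6, Ndufb11, Ndufc2, Uqcrh, Cox8a and Atp5f1b (vertical axis, log2 RMA value, the same span of 2.4 in each panel) on every array, by tissue of origin, with the mean of each pair of arrays as a line. Ndufb6 read 7.46 to 8.02 before transplantation, 7.47 and 7.49 in recovered oral mucosa cells and 9.29 to 9.50 in the other recovered cells, while Atp5f1b stayed between 11.72 and 11.91 on every array.

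Across tissues, 24 of the 83 members (28.9%) rose in vagina, esophagus, footpad and trachea alike, against 297 of all 29215 probe sets (1.02%) and 3.7% of the brighter ones with 1 symbol. This grouping of tissues was not set in advance. The changes of the 24 members in these 4 tissues ran from 0.27 to 1.67. In oral mucosa the same 24 genes ran from -0.52 to 0.10, with 19 of 24 below 0. At the adjusted p, 4 of them (Ndufb4, Ndufs4, Ndufs5 and Ndufs6-ps1) fell there and 0 rose. Of the 297 probe sets, 51 fell and 17 rose in oral mucosa, so such a fall was not particular to the members. The other 59 members were mixed: 8 rose in 3 tissues, 11 in 2 and 20 in 1, and 20 rose in no tissue. These are 9.64%, 13.3%, 24.1% and 24.1% of the 83 members, against 2.71%, 6.69%, 21.4% and 67.9% of all probe sets. The count of 24 became 12 with centered arrays, and 12, 15 and 12 without esophagus before transplantation replicate 2, esophagus after transplantation replicate 1 or esophagus after transplantation replicate 2, and these were members of the 24 in each case, Ndufb6 among them.

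**Figure D3:**
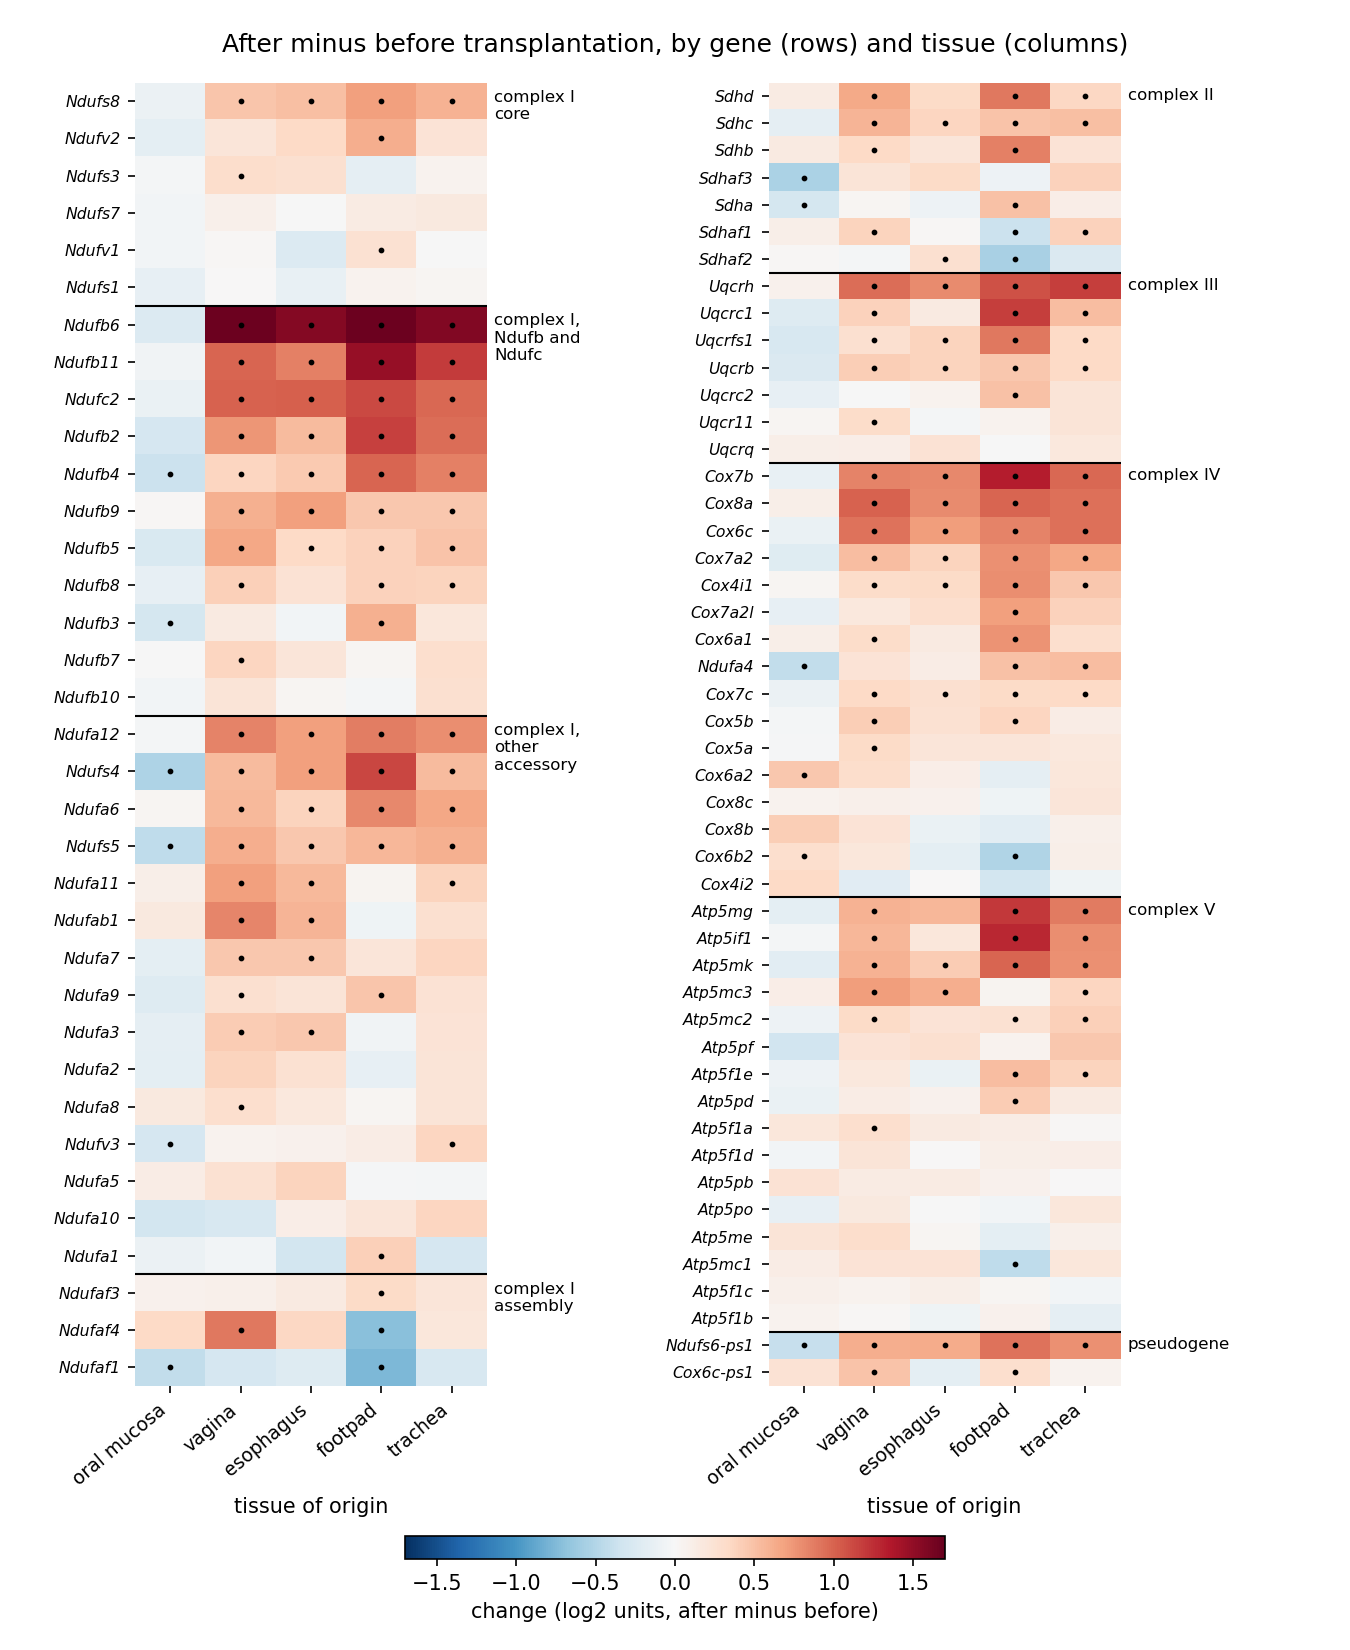
Change after minus before transplantation (color, log2 units) of each of the 83 genes (rows, grouped by complex and sorted within a group by the mean of the 4 right columns) in each tissue of origin (columns), with a dot at an adjusted p under 0.05. The vagina, esophagus, footpad and trachea columns share 24 genes that rose in all 4, led by Ndufb6, and the oral mucosa column holds 2 genes that rose and 10 that fell.

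Within complex I the change was uneven between its parts. Of the 11 Ndufb and Ndufc subunits, which sit in the membrane arm, 7 rose in the 4 tissues alike (Ndufb2, Ndufb4, Ndufb5, Ndufb6, Ndufb9, Ndufb11 and Ndufc2), and 1, Ndufb10, rose in none. Their median change was 0.60 in vagina, 0.44 in esophagus, 0.60 in footpad and 0.49 in trachea, and -0.14 in oral mucosa. Of the 6 core subunits, which carry the electron transfer centers, Ndufs8 rose in all 4, by 0.48 to 0.69, and the median change lay between 0.11 and 0.20. Ndufs1, the largest core subunit, changed by -0.15 to 0.07 and passed the test in no tissue. Of the 15 other accessory subunits, 4 rose in the 4 tissues alike, namely Ndufa6, Ndufa12, Ndufs4 and Ndufs5. Because the core and accessory groups were set side by side without a test of their difference, the counts are a description.

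Ndufb11, another membrane arm subunit, read 8.21 to 8.65 on the 10 arrays before transplantation and 8.57 and 8.55 in recovered oral mucosa cells. The other recovered cells read 9.44 and 9.54 in vagina, 9.42 and 9.38 in esophagus, 9.80 and 9.81 in footpad, and 9.57 and 9.68 in trachea, with no overlap with the arrays before. Its change was 1.48 ± 0.09 in footpad and 1.18 in trachea, past both criteria, and 0.99 in vagina and 0.86 in esophagus, past the adjusted p alone. Ndufc2 read 9.07 to 9.41 before transplantation, 9.07 and 9.22 in recovered oral mucosa cells, and 10.23 to 10.39 in the other recovered cells. It rose by 1.01 ± 0.12 in esophagus and 1.12 in footpad, past both criteria, and by 1.00 in vagina and 0.98 in trachea, just under a 2-fold change. Ndufb2 (1.16 ± 0.12) and Ndufs4 (1.14 ± 0.12) passed both criteria in footpad alone. Without footpad before transplantation replicate 1 the change of Ndufs4 in footpad was 0.999, and without esophagus before transplantation replicate 2 that of Ndufc2 in esophagus was 0.91, both then under the fold limit.

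Complex II, which is succinate dehydrogenase, moved less evenly. Sdhc, a membrane anchor, rose in the 4 tissues, by 0.37 to 0.58. The iron-sulfur subunit Sdhb read 8.82 and 8.86 before and 9.68 and 9.71 after transplantation in footpad, a rise of 0.85 ± 0.09 (adjusted p = 2.83e-06). It also rose in vagina, by 0.34, and changed by 0.21 and 0.23 in esophagus and trachea without passing the test. Sdha, the flavoprotein subunit, rose in footpad (0.50), fell by 0.30 in oral mucosa and did not pass elsewhere.

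Of the 7 members of complex III, Uqcrh, Uqcrb and Uqcrfs1 rose in the 4 tissues alike. Uqcrh, the hinge subunit, read 9.30 to 9.71 before transplantation, 9.26 and 9.51 in recovered oral mucosa cells and 10.38 to 10.71 in the other recovered cells. Its change was 1.18 ± 0.10 in trachea and 1.08 in footpad, past both criteria, 0.95 in vagina, 0.80 in esophagus and 0.07 in oral mucosa. Uqcrc1, a core protein of the complex, set footpad apart: the recovered cells read 10.73 and 10.85 in footpad, 10.08 and 10.04 in vagina, 9.99 and 10.07 in esophagus, 10.20 and 10.10 in trachea and 9.59 and 9.74 in oral mucosa, against 9.56 to 9.95 before transplantation. The footpad arrays were the highest of all 20. It rose by 1.17 ± 0.09 in footpad, 0.52 in trachea and 0.39 in vagina, and the change of 0.16 in esophagus did not pass.

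In complex IV, cytochrome c oxidase, the widely expressed subunits moved and the tissue-restricted isoforms did not follow. Of the 10 widely expressed subunits, 6 rose in the 4 tissues alike (Cox4i1, Cox6c, Cox7a2, Cox7b, Cox7c and Cox8a), and each of the 10 rose in at least 1 tissue. Cox7b read 8.25 to 8.88 before transplantation, 8.50 and 8.76 in recovered oral mucosa cells and 9.52 to 9.81 in the other recovered cells. It rose by 1.34 ± 0.13 in footpad, past both criteria, and by 0.82 to 0.97 in vagina, esophagus and trachea. Cox8a read 9.37 to 9.71 before and 10.35 to 10.67 after in those 4 tissues, and 9.70 on both recovered oral mucosa arrays. Its rises were 1.00 ± 0.11 in vagina, 0.81 in esophagus, 0.99 in footpad and 0.94 in trachea. Cox6c rose by 0.70 to 0.93 with an SE of 0.07.

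The isoforms known from other tissues were dim and rose in none of the 4. Cox6a2 and Cox8b, the heart and muscle isoforms, Cox4i2, the isoform of lung, and Cox6b2 and Cox8c, the testis isoforms, had mean levels of 4.05 to 5.75. Cox6b2 read 4.95 and 4.88 before and 4.38 and 4.43 after transplantation in footpad, a fall of 0.51 ± 0.09 (adjusted p = 0.000535), and rose by 0.29 in oral mucosa. Cox6a2 rose by 0.46 ± 0.14 in oral mucosa (adjusted p = 0.034), where the arrays before read 5.21 and 5.80 and those after 5.90 and 6.03. These 2 were the members that rose in oral mucosa. No detection call was used here, so it is not known whether values at this level lie above background.

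In the catalytic part of complex V, the ATP synthase, none of the 5 F1 subunits rose in the 4 tissues alike. For 5 genes this count is near the share of all probe sets (1.02%) and of the brighter ones with 1 symbol (3.7%). Atp5f1a rose in vagina and Atp5f1e in footpad and trachea, while Atp5f1b, Atp5f1c and Atp5f1d passed in no tissue. Atp5f1b, the catalytic beta subunit, read 11.72 to 11.91 before and 11.73 to 11.90 after transplantation over the 5 tissues, with changes of -0.15 to 0.07. Of the 10 stalk and membrane subunits, Atp5mk rose in the 4 tissues, by 0.43 to 0.99, and 5 rose in none. Atp5mg, a small membrane subunit, rose by 1.20 ± 0.19 in footpad, where the arrays read 6.69 and 7.20 before and 8.11 and 8.18 after, and the change was 0.94 without footpad before transplantation replicate 1. Atp5if1, the protein that inhibits ATP hydrolysis by the synthase, read 10.78 and 10.83 before and 12.08 and 12.10 after in footpad, a rise of 1.28 ± 0.12 (adjusted p = 1.73e-06). It also rose in trachea (0.80) and vagina (0.56), and changed by 0.20 in esophagus and -0.03 in oral mucosa, where it did not pass.

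Of the 6 assembly factors, which help to build a complex but are not part of it, 4 fell and 1 rose in footpad. Of all probe sets 14.9% fell and 16.6% rose in footpad, and of the brighter ones with 1 symbol 34.2% and 32.9%. The assembly factor that rose was Ndufaf3 (0.32), and Sdhaf3 did not pass in footpad. Ndufaf1, a factor of complex I assembly, fell in footpad by 0.77 ± 0.10 (adjusted p = 3.65e-05) and in oral mucosa by 0.42 (adjusted p = 0.00905), and changed by -0.28 to -0.22 in vagina, esophagus and trachea without passing. Ndufaf4, a factor of the same complex, read 9.43 and 9.29 before and 8.82 and 8.49 after transplantation in footpad, but 8.94 and 8.61 before and 9.65 and 9.68 after in vagina. It fell by 0.70 ± 0.14 in footpad and rose by 0.89 in vagina. In footpad, Sdhaf1 and Sdhaf2, which help to mature Sdhb and Sdha, fell by 0.37 and 0.55, while Sdhaf1 rose in vagina (0.38) and trachea (0.39). The 4 subunits of complex II rose in footpad by 0.49 to 0.90. Sdhaf3 fell by 0.53 in oral mucosa. The membrane subunit Atp5mc1 was the other member that fell in footpad besides Cox6b2, by 0.43.

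The next question was whether the response itself differed between tissues. The F test over the 5 responses called 56 of the 83 members at adjusted p under 0.05 (37% of all probe sets), and 17 (20.5%) also had responses that spanned over 1, close to the share of all probe sets (18.5%). The smallest adjusted p-values were those of Ndufb11, Cox6c, Ndufb6, Ndufb4 and Uqcrc1. The response of oral mucosa lay below the mean of the other 4 for 44 members and above it for 1, Cox6b2, against 12.8% and 11.2% of all probe sets. The difference was over 1 for 8 members (2.71% of all probe sets lower), namely Ndufb6, Ndufs4 (-1.25), Ndufb11 (-1.19), Ndufc2 (-1.15), Ndufb2 (-1.13), Ndufs6-ps1 (-1.12), Cox7b (-1.12) and Ndufb4 (-1.03).

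Each other tissue was also set against the mean of the remaining 4. Footpad lay higher for 33 members and lower for 10 (16.9% and 15.9% of all probe sets), with a difference over 1 for Ndufaf4 (-1.15), the 1 such member (2.81% of all probe sets lower). Vagina lay higher for 8 (3.76%), trachea for 7 (4.02%) and esophagus higher for 1 and lower for 2 (5.78% and 4.34%). Without any 1 of the 4 arrays of the tissue, the calls in vagina were 2 to 5 and those in trachea 1 to 2, and Ndufaf4 in footpad became 0 to 2 members with a difference over 1. Since each of these means includes oral mucosa, the responses of vagina, esophagus, footpad and trachea were also compared among themselves, a comparison chosen after the data had been seen. The F test over these 4 called 29 of the 83 members (30.3% of all probe sets), 3 of them with a span over 1 (13.7%), and 7 of the 24 genes that rose in all 4. Against the mean of the other 3, footpad lay higher for 21 members (15.5% of all probe sets) and lower for 11 (13.7%). Uqcrc1 (0.82 ± 0.11), Atp5if1 (0.76 ± 0.14) and Sdhb (0.60 ± 0.10) lay higher in footpad, and Ndufaf4 (-1.18 ± 0.16), Atp5mc1 (-0.65 ± 0.10) and Ndufab1 (-0.63 ± 0.10), the mitochondrial acyl carrier protein, lay lower.

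Differences between the tissues before transplantation were small. The F test over the 5 tissues called 17 members at adjusted p alone (35.7% of all probe sets), or 31 with a trend in the prior variance. With a fold over 2 between any pair of tissues it called 0 (9.05%). An unadjusted p under 0.05 was found for 29 members, against 46% of all probe sets. The median span between the highest and lowest tissue was 0.28, and the widest was 0.74, for Ndufaf4. The smallest adjusted p-values belonged to Ndufa4, Sdhaf2, Ndufb3, Cox6b2 and Ndufab1. Ndufa4, a subunit now assigned to complex IV, was lowest in footpad, at 10.79 and 10.93, and highest in esophagus, at 11.49 and 11.29.

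After transplantation, 68 members differed between tissues at adjusted p alone (40.2% of all probe sets), 12 of them with a fold over 2 (11.9%), and the median span was 0.61. Oral mucosa was the lowest tissue for 56 of the 68, and the highest was footpad for 25, trachea for 21 and vagina for 17. The order of tissues was not counted over all probe sets, so it is not known whether it is particular to the members. The smallest adjusted p-values belonged to Ndufb6 (span 1.99), Cox6c (0.96), Ndufb11 (1.24), Uqcrh (1.27) and Ndufa12 (0.94). Of the 12, 11 were lowest in oral mucosa, and Ndufaf4 was lowest in footpad.

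A change common to all tissues was tested on 1 mean per group, blocked by tissue, which makes the spread between tissues the error. It called 0 of the 83 members by limma's adjusted p, and none of all probe sets (0%), whereas 32 members had an unadjusted p under 0.05, 31 of them higher, against 11.2% of all probe sets. The highest mean changes were those of Ndufb6 (1.25 ± 0.29, adjusted p = 0.308), Ndufb11 (0.89) and Uqcrh (0.82), and the lowest those of Ndufaf1 (-0.39), Sdhaf2 (-0.11) and Ndufa1 (-0.07). Each tissue was then left out in turn. Without vagina, esophagus, footpad or trachea, 0 probe sets passed, with adjusted p-values of 0.852, 0.573, 0.241 and 0.578 for Ndufb6 (limma). Without oral mucosa, Ndufb6 was the 1 probe set of the whole array that passed, at 1.62 (adjusted p = 0.041). In that fit 44 members had an unadjusted p under 0.05, and 16 to 26 without 1 of the other tissues. The share of all probe sets was not counted for these fits.

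The next question was which related genes moved at the same time. The shares of all probe sets that rose, given above, were 9.17% in vagina, 6.7% in esophagus, 16.6% in footpad, 6.25% in trachea and 9.35% in oral mucosa. The shares that fell were 10.7%, 6.57%, 14.9%, 8.84% and 11% in the same order. Among the brighter probe sets with 1 symbol, 18.8%, 18.7%, 32.9%, 16% and 16.4% rose and 22.2%, 15.1%, 34.2%, 20% and 23.3% fell. Of 68 genes for proteins of the cytosolic ribosome, 23 rose and 0 fell in vagina, 15 rose and 2 fell in esophagus, 55 rose and 1 fell in footpad, and 38 rose and 1 fell in trachea, with median changes of 0.21, 0.12, 0.39 and 0.29. In oral mucosa 0 rose and 5 fell (median -0.08). Of 68 proteins of the mitochondrial ribosome, which translates the subunits encoded in mitochondrial DNA, 34 rose and 1 fell in vagina, 29 rose and 0 fell in esophagus, and 26 rose and 3 fell in trachea. In footpad 22 of them rose and 22 fell, both near the shares of the brighter probe sets. In oral mucosa 0 of them rose and 10 fell. The part of these broader movements in the change of the respiratory chain genes was not tested.

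**Figure D4:**
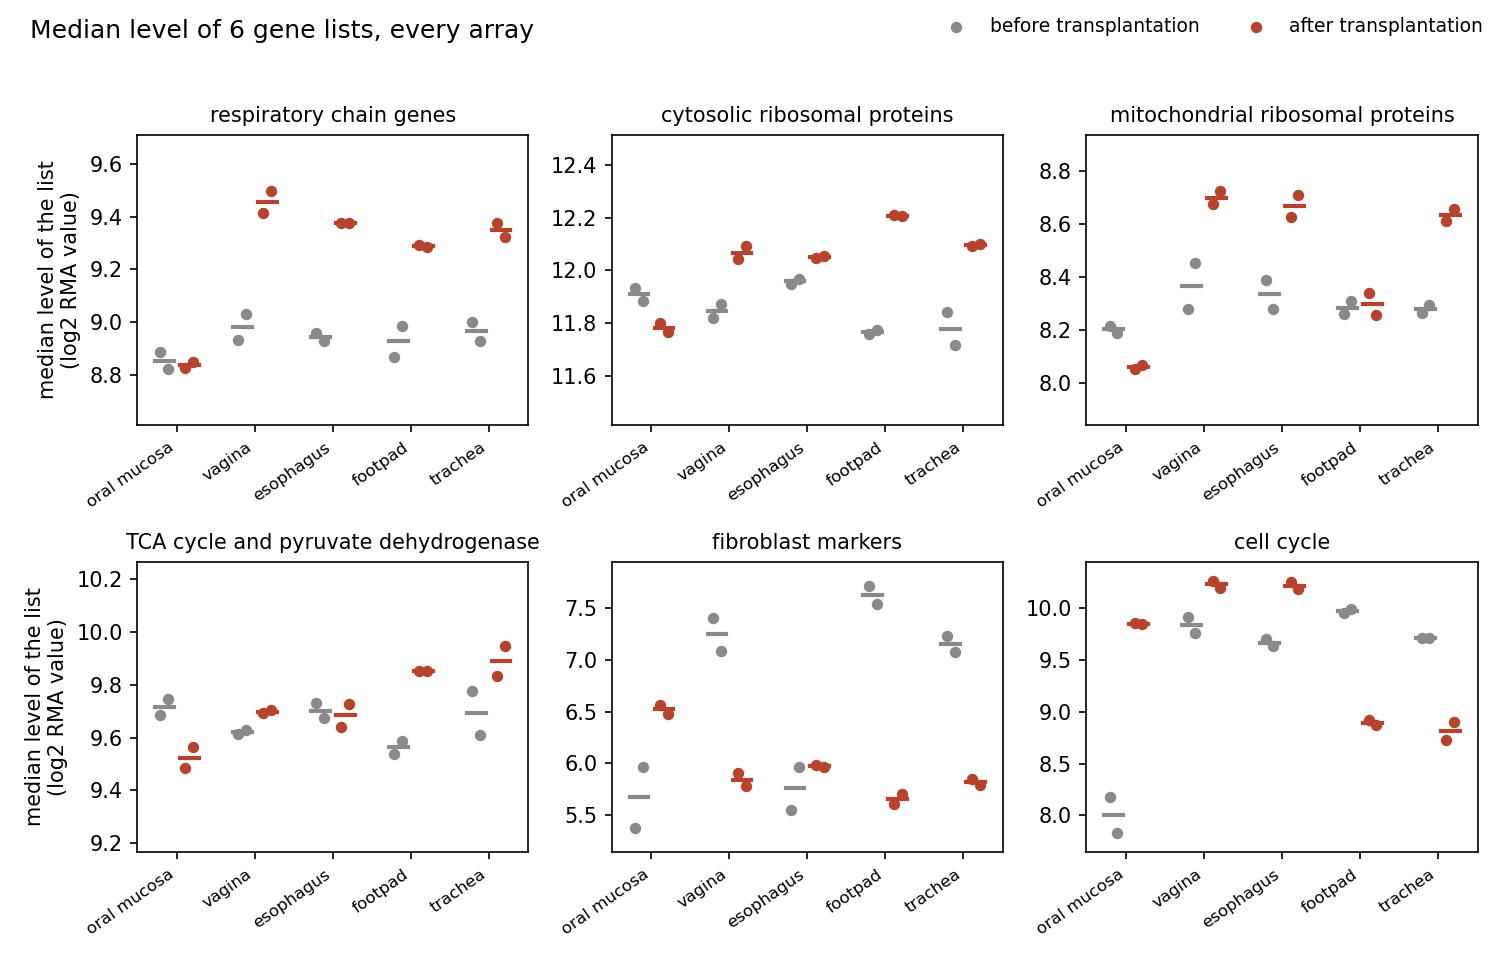
Median level of 6 gene lists (vertical axis, log2 RMA value, a span of 1.1 in the first 4 panels and 2.8 in the last 2) on every array, by tissue of origin, with the mean of each pair as a line. The median of the respiratory chain genes lay between 8.82 and 9.03 before transplantation, at 8.83 to 8.85 in recovered oral mucosa cells and between 9.29 and 9.50 in the other recovered cells, and the fibroblast and cell cycle panels follow other orders.

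Genes of the TCA cycle and pyruvate dehydrogenase, which feed the chain with NADH and succinate, were also counted. Of 15, 2 rose in vagina and 2 in esophagus with none falling, 3 rose and 1 fell in trachea, 8 rose and 2 fell in footpad, and 1 rose and 3 fell in oral mucosa. Median changes were 0.06, 0.05, 0.04, 0.26 and -0.11 in the same order, and were not tested against those of the respiratory chain genes. Idh3b, a subunit of the NAD-dependent isocitrate dehydrogenase, rose in the 4 tissues by 0.35 to 0.68 and fell by 0.45 in oral mucosa. Idh2, the NADP-dependent enzyme of mitochondria, rose by 1.90 ± 0.08 in footpad and by 0.01 to 0.24 elsewhere, where it did not pass. Of 22 genes of glycolysis and the hypoxia response, 2 rose and 6 fell in vagina, 1 and 5 in esophagus, 4 and 8 in footpad, 4 and 2 in trachea, and 6 and 3 in oral mucosa.

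Among 25 assembly factors and electron carriers outside the name rule, 7 rose in vagina, 7 in esophagus, 9 in footpad and 7 in trachea, and 0, 2, 6 and 2 fell. In oral mucosa 1 rose and 9 fell. Surf1, a factor of complex IV assembly, rose by 1.61 ± 0.12 in footpad and by 0.89 in trachea and fell by 0.42 in oral mucosa. Etfa, which carries electrons from fatty acid oxidation, rose by 1.10 ± 0.09 in footpad. Tmem70, a factor of complex V assembly, rose in the 4 tissues by 0.63 to 0.89.

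Of 16 regulators of mitochondrial genes, 0 rose and 8 fell in footpad, 3 rose and 1 fell in vagina, 5 and 1 in esophagus, 1 and 3 in trachea, and 1 and 1 in oral mucosa. The factors of the 3 promoter motifs and the coactivator Ppargc1a are given because of those motifs, after their values had been seen. Nrf1 rose in oral mucosa (0.47 ± 0.08) and esophagus (0.33) and fell in footpad and trachea, by 0.65 and 0.36. Gabpa rose in esophagus (0.45 ± 0.11) and fell by 0.56 in footpad and 0.35 in trachea. Yy1 changed by -0.25 to 0.05 and Ppargc1a by -0.03 to 0.22, neither past the test, and Ppargc1a read 3.09 to 3.54 in the group means.

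Markers of other cells and of proliferation also moved between the stages. Of 10 fibroblast markers, 9 fell in vagina, 10 in footpad and 8 in trachea, with none rising, and median changes of -1.62, -1.66 and -0.95. The median level of the list lay between 5.37 and 7.71 before transplantation, at 6.48 and 6.56 in recovered oral mucosa cells and between 5.61 and 5.99 in the other recovered cells. In esophagus 1 rose and 1 fell (median 0.02). In oral mucosa 3 rose and none fell, with Vim, an intermediate filament of mesenchymal cells that cultured keratinocytes can also express, 5.10 ± 0.15 higher. Of 12 cell cycle genes, 12 rose in oral mucosa (median 1.68), 10 in vagina and 9 in esophagus, with none falling, whereas 7 fell and 1 rose in footpad (median -0.36) and 11 fell in trachea (median -0.79). The median level of the cell cycle list lay between 7.83 and 9.99 before transplantation, with the 2 oral mucosa arrays lowest. Of 6 epithelial markers, 1 rose and 2 fell in oral mucosa, 3 fell in vagina, 2 in esophagus and 2 in trachea, and 2 rose and 2 fell in footpad, where Epcam rose by 3.00 ± 0.09. The part of cell composition, proliferation or time in culture in the result was not tested.

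For 11 members the array holds more than 1 probe set, and those with the lower mean level were not used in the counts. Wherever a used probe set passed the test in a tissue, each other probe set of the gene changed in the same direction. The least alike were the 2 probe sets of Ndufv3, a small subunit of the electron input module of complex I. The used one fell by 0.28 in oral mucosa, rose by 0.36 in trachea and changed by 0.06 to 0.13 elsewhere, and the other changed by -0.24 to 0.21 and passed in no tissue.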

How the data were processed

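The authors prepared RNA from duplicate cultures of EGFP-sorted cells, hybridized it to Affymetrix Rat Gene ST arrays and deposited log2 values normalized by RMA, 1 per probe set. RMA subtracts background, equalizes the arrays and summarizes probes, which assumes that most transcripts do not change and compresses low values. The array set normalized together, the tool versions, the build and the hybridization batches are not given in any source used here. Arrays of whisker and thymus were not used here.

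Groups were taken from the labels, with 20 arrays in 10 groups of 2. Symbols came from the platform annotation: of 29215 probe sets, 15310 had 1 symbol, 323 several and 13582 none. The 83 members occupied 95 probe sets. Values were fitted with limma 3.58.1 (R 4.3.3) over all 10 groups, with moderated tests on 10 residual and 3.64 prior degrees of freedom and Benjamini-Hochberg adjustment over all probe sets within each comparison. A call was an adjusted p under 0.05, and a second count also required a fold over 2. Tables and figures were made with Python 3.11.15. The code was tested on simulated data.

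Genes were named by rule: Ndufb6, the members past both criteria in any tissue, the 3 highest and 3 lowest mean responses, the 5 smallest adjusted p-values of each F test, the 5 highest and 5 lowest mean levels, the tissue isoforms of complex IV, and up to 3 genes of each other list by their change in footpad or in the mean response. Other genes were named for their role or their call pattern, after their values had been seen. The members and lists were chosen with earlier results of these data known. Precision is limited by the 2 arrays per group, and array files give no depth. Alternatives were centering each array on its median, leaving out the dimmest 40% of probe sets, a trend in the prior variance, a fit of each tissue alone, the mean of the probe sets of a gene, the replicate number as a block, and leaving out each array in turn.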

Additional observations from a re-analysis of the deposited data

Results flagged for a closer look

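The following differences between tissues were singled out because the test of the difference itself passed both the adjusted p and the size limit. The response of oral mucosa minus the mean response of the other 4 tissues was -1.85 for Ndufb6, -1.25 for Ndufs4, -1.19 for Ndufb11, -1.15 for Ndufc2, -1.13 for Ndufb2, -1.12 for Ndufs6-ps1, -1.12 for Cox7b and -1.03 for Ndufb4. Of these 8, 6 are accessory subunits of complex I from the Ndufb, Ndufc and Ndufs groups, 1 is an annotated pseudogene of such a subunit and 1 belongs to complex IV. The response of footpad minus the mean of the other 4 was -1.15 for Ndufaf4. Over all members, 56 differed in response between tissues at the adjusted p alone and 17 with a span over 1 as well, which are 20.5% of the members against 18.5% of all probe sets.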

How the results depend on the processing

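No recomputed change of a member past both criteria and no median change of the members changed sign, whereas centering turned the median over all probe sets from 0.05 to -0.09 in oral mucosa, 0.06 to -0.01 in vagina, -0.01 to 0.00 in esophagus and 0.01 to -0.01 in trachea. Under the alternatives, 309 of the 370 values recomputed for the main comparisons and 117 of the 120 for single genes kept their call, or their count within 1.5 times. With arrays centered on their own medians, the calls at adjusted p alone were 26 in vagina (48 in the main fit) and 19 in esophagus (30), the median changes were -0.20 in oral mucosa and 0.25 in vagina, and 12 members (24) were higher in vagina, esophagus, footpad and trachea alike. The differences of 1 tissue from the other 4 then counted 13 members in oral mucosa (8) and 2 in footpad (1) past both criteria, and 2 in vagina (8), 1 in esophagus (3) and 2 in trachea (7) at adjusted p alone, and 21 members (12) differed between tissues after transplantation past both criteria. When each tissue was fitted alone, 0 members were called in oral mucosa (12), 30 in vagina and 12 in esophagus at adjusted p alone, with fewer degrees of freedom by construction. Without the dimmest 40% of probe sets the median changes were 0.39 in footpad and 0.34 in trachea, over fewer members. The response of esophagus then differed from the other 4 tissues for 6 members (3) at adjusted p alone. With a trend in the prior variance such a difference was called for 8 members in esophagus (3) and 11 in trachea (7). Under that trend 31 (17) differed between tissues before transplantation. The mean response without oral mucosa called 1 member (0) under both rules, Ndufb6, and without any of the other tissues it called 0. The cause of the other shifts was not tested.

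Leaving out 1 array gave 3 to 11 calls at adjusted p alone in oral mucosa, 27 to 37 in vagina, 14 to 24 in esophagus, 42 to 49 in footpad and 22 to 30 in trachea. Past both criteria it gave 0 in oral mucosa, 2 to 5 in vagina, 1 to 2 in esophagus, 8 to 13 in footpad and 3 to 6 in trachea. The median changes ran from -0.09 to -0.05, 0.26 to 0.39, 0.19 to 0.29, 0.29 to 0.40 and 0.25 to 0.32 in the same order. The difference from the other 4 tissues then counted 35 to 44 in oral mucosa (7 to 10 past both criteria), 2 to 5 in vagina (0 to 1), 1 to 3 in esophagus, 30 to 42 in footpad (0 to 2) and 1 to 2 in trachea, and 12 to 24 members were higher in the 4 tissues alike. The change of Ndufb6 ran from -0.39 to -0.07 in oral mucosa, 1.63 to 1.71 in vagina, 1.37 to 1.75 in esophagus, 1.49 to 1.83 in footpad and 1.48 to 1.67 in trachea. The change in footpad of Atp5mg (0.94) and Ndufs4 (0.999) without footpad before transplantation replicate 1, and that of Ndufc2 in esophagus (0.91), fell under the 2-fold limit.

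Samples of the same replicate number before and after transplantation did not deviate together within a tissue. The correlations across probe sets were -0.15 in oral mucosa, 0.03 in vagina, 0.01 in esophagus, 0.03 in footpad and -0.06 in trachea. Over all 45 pairs of groups they ran from -0.41 to 0.40, with 3 above 0.1 and 4 below -0.1. A shared culture or hybridization batch was not tested. With the replicate number as a block, 12, 47, 28, 51 and 35 members were called at adjusted p alone in oral mucosa, vagina, esophagus, footpad and trachea, 5 differed in vagina from the other 4 tissues, and 22 were higher in the 4 tissues alike. With crossed numbers in oral mucosa, an alternative chosen after seeing the data, 11 members were called there. With 2 arrays per group, small changes of single genes could not be resolved, and for the 5 dimmest members signal over background is not known.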

Other observations

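Other mitochondrial genes outside the chain were counted as well. Of all probe sets, 9.17% rose and 10.7% fell in vagina, 6.7% and 6.57% in esophagus, and 16.6% and 14.9% in footpad. In trachea 6.25% rose and 8.84% fell, and in oral mucosa 9.35% and 11%. Brighter probe sets with 1 symbol passed more often, as given above. Of 24 genes of protein import, carriers and the inner membrane, 11 rose and 0 fell in vagina, 16 rose and 0 fell in esophagus, 5 rose and 2 fell in trachea, and 4 rose and 3 fell in oral mucosa, whereas 8 rose and 12 fell in footpad. Tomm7, a small subunit of the import pore of the outer membrane, rose in vagina (0.89 ± 0.09), esophagus (0.84), footpad (0.58) and trachea (1.08) and fell by 0.26 in oral mucosa, and Ndufb6 rose in the same 4 tissues. Slc25a5, which exchanges ADP and ATP across the inner membrane, rose by 0.31 to 0.78 in the same 4 tissues and changed by 0.14 in oral mucosa without passing. Tomm40, the channel of the same import pore, fell by 1.26 ± 0.09 in footpad and 0.47 in trachea and rose in oral mucosa (0.51) and esophagus (0.29).

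Of 9 genes of oxidant defense and uncoupling, 1 rose and 3 fell in oral mucosa, 1 and 3 in vagina, 1 and 2 in esophagus, 4 and 2 in footpad, and 1 and 1 in trachea. These counts are small and were not tested against the shares of all probe sets. Ucp2, a carrier of the inner membrane named as an uncoupling protein, ran against the chain: it rose by 1.02 ± 0.09 in oral mucosa and fell by 0.82 in vagina, 1.50 in esophagus, 0.50 in footpad and 1.24 in trachea. Prdx3, the peroxidase of the mitochondrial matrix, rose in esophagus (0.77 ± 0.08) and footpad (0.38). These genes were named after their values had been seen, and each value is from limma's fit over all arrays.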
